A study of Harpegnathos saltator with 12 samples.

Results

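Rh50 (LOC105188823) was followed as 1 gene of 14407 across antennal RNA libraries of the ant Harpegnathos saltator, and its level is described by orco genotype beside the Ir genes and the neuronal markers. It was taken because the study used it to recognise ammonia-sensing neurons among single nuclei, a rule that uses no value of these libraries. The libraries came from adult antennae of 3 genotypes: ants homozygous for an orco mutation (n = 7), ants heterozygous for it (n = 3) and wild-type ants (n = 2). Heterozygous and wild-type libraries were pooled as controls (n = 5). The mutation was made earlier by CRISPR/Cas9, and the line was kept through heterozygotes because homozygous females tend to die early. Neither the labels nor the methods give the age of these adults or the number of ants in a library. P-values therefore measure the spread between these libraries, which may be partly technical.

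Rh50 belongs to the Rhesus glycoproteins, which together with the Amt proteins form the channel family that lets ammonia or ammonium cross membranes. In Drosophila, Rh50 and Amt are expressed in the antennal sensilla that respond to ammonia. Those sensilla also hold neurons that use ionotropic receptors (Irs), in which a tuning Ir is combined with co-receptors such as Ir25a, Ir8a or Ir76b. Most other olfactory neurons use odorant receptors, which need the co-receptor Orco.

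Gene-assigned counts ranged from 5.65 M to 23.2 M in the homozygotes, from 6.61 M to 11.7 M in the heterozygotes, and were 14.2 M and 4.11 M in the wild types. Sequencing batch 1, as the labels name it, held homozygote replicate 1, heterozygote replicate 1 and wild-type replicate 2, and batch 2 held the other libraries. The targeted transcript fitted the labels, with orco at 13.6 to 157 CPM in the homozygotes and 1670 to 2769 CPM in the controls. CPM is the usual count share of a gene in its library, after TMM scaling between libraries. Glia (repo, 134 to 180 CPM in homozygotes and 105 to 134 CPM in controls), support cells and neurons were all represented by their markers, as in a whole antenna. Because these are bulk samples, fewer cells of a type and less RNA per cell cannot be told apart.

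RefSeq (assembly Hsal_v8.6) places Rh50 at bases 1961961 to 1987275 of a scaffold that its table does not name, a span of 25315 bases with 7 transcripts and 6 protein models. A long non-coding RNA gene, LOC112588785, lies inside this span. It had between 1 and 30 counts per library, where Rh50 had between 97 and 1713. The libraries were not stranded, and reads that overlapped both genes were left uncounted. The coding neighbours were LOC105188822, which fell by 0.69 on the log2 scale in homozygotes over controls (SE 0.11, adjusted p = 6.4e-04 by edgeR's quasi-likelihood test), and Con, which rose by 1.69 (SE 0.26, adjusted p = 3.6e-04). Con is a cell adhesion protein in Drosophila.

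Rh50 was highest in every homozygous library, intermediate but scattered in the heterozygotes and lowest in the wild types. Homozygote replicates 1 to 7 had 92.8, 83.3, 77.2, 78.1, 81.5, 90.6 and 109 CPM. Heterozygote replicates 1 to 3 had 63.1, 26.6 and 55.1 CPM, and wild-type replicates 1 and 2 had 23.9 and 21.1 CPM. No homozygous library overlapped a control library, whereas heterozygote replicate 2 lay close to the wild types and far from the other heterozygotes. The group values were 87.5 ± 11.2 CPM in homozygotes, 48.2 ± 19.2 CPM in heterozygotes and 22.5 ± 2.01 CPM in wild types (SD, n = 7, 3 and 2).

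Counting error was small beside the distance between homozygotes and controls, but not beside that between heterozygote replicate 2 and the wild types. The Wilson 95% interval ran from 72.7 to 82.0 CPM in homozygote replicate 3, the lowest of its group. It ran from 57.2 to 69.5 CPM in heterozygote replicate 1, the highest control, and from 17.3 to 25.7 CPM in wild-type replicate 2, the shallowest library. In heterozygote replicate 2 it ran from 23.7 to 29.7 CPM and in wild-type replicate 1 from 21.5 to 26.6 CPM. The interval of heterozygote replicate 2 thus overlapped those of both wild types. These intervals cover counting error only, since the reads carry no molecular identifiers. All 7 homozygotes lying above all 5 controls was seen in 2.66% of the 10740 genes tested. A strict step, with homozygotes above heterozygotes above wild types and no overlap, was seen in 1.05%. For Rh50 its lower part rested on heterozygote replicate 2 at 26.6 CPM over wild-type replicate 1 at 23.9 CPM, whose intervals overlapped. Among the tested genes, Rh50 stood between the 76.1 and 83.4 percentile in homozygotes, between the 47.7 and 70.1 percentile in heterozygotes and at the 45.5 and 43.4 percentile in wild types.

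**Figure D1:**
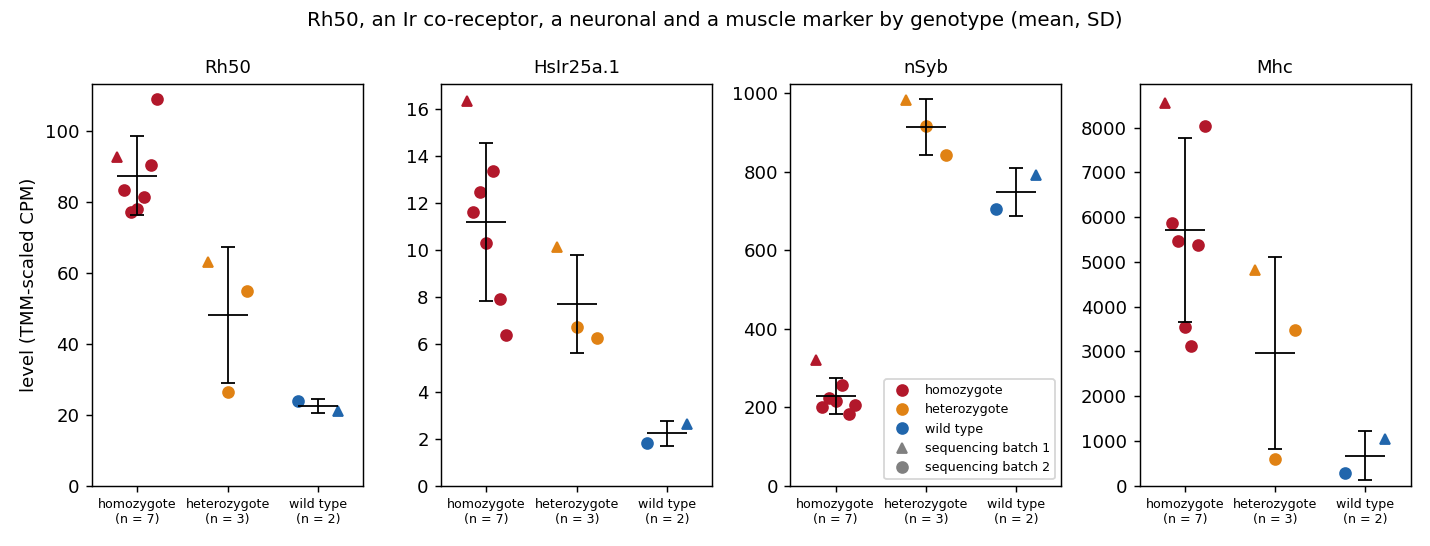
Levels in TMM-scaled CPM of Rh50, the Ir co-receptor gene HsIr25a.1, the neuronal marker nSyb and the muscle marker Mhc, with 1 point per library, homozygotes at the left (n = 7), heterozygotes (n = 3) and wild types (n = 2). Horizontal bars are means, whiskers are SD, triangles are batch 1 and circles batch 2. Rh50 separates homozygotes (77.2 to 109 CPM) from controls (21.1 to 63.1 CPM), nSyb runs the other way, and Mhc has its low control values in the same 3 libraries as Rh50.

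Does loss of orco go with a change in Rh50? In homozygotes over controls Rh50 rose 2.77-fold (log2 1.47, SE 0.20, adjusted p = 1.8e-04, edgeR), higher in 7 of 7 libraries. A call alone was common in this comparison, with 43.9% of tested genes called, 18.8% higher and 25% lower. By size, Rh50 ranked 610 of 10740, and 1459 of the 2023 genes called higher changed less. An exact permutation test of log2 CPM over the libraries gave a two-sided p = 0.00253, the smallest that 792 arrangements allow, for a difference of 1.345. Restricted to batch 2, the same exact permutation test gave a difference of 1.39 and p = 0.0238, its lower limit with 84 arrangements. Batch 1 held 1 library per genotype and gives no test, but its order was the same, at 92.8, 63.1 and 21.1 CPM in homozygote, heterozygote and wild type.

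The comparisons with each control genotype share the homozygous libraries. Against wild types Rh50 rose 4.04-fold (log2 2.02, SE 0.29, adjusted p = 2.6e-04, edgeR), where 44.8% of tested genes were called, 19.1% higher and 25.8% lower. Against heterozygotes it rose 1.89-fold (log2 0.92, SE 0.23, adjusted p = 0.014, edgeR), where 23% were called, 6.82% higher and 16.2% lower. Its size over heterozygotes leaned on heterozygote replicate 2, without which the log2 fold change was 0.59 (adjusted p = 0.033, edgeR). The exact permutation test of homozygotes against heterozygotes gave p = 0.0167 for a difference of 0.94, the smallest p that 120 arrangements allow. Without any 1 of the 3 heterozygotes it could not pass 0.05. Its p was then 0.0556 each, the smallest that 36 arrangements allow (differences of 0.56 to 1.18). In batch 2 alone the exact test gave p = 0.0714, the smallest that 28 arrangements allow.

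Heterozygotes over wild types differed by 1.09 on the log2 scale (SE 0.29, adjusted p = 0.026, edgeR), in a comparison where 17.8% of tested genes were called, 9.71% higher and 8.14% lower. This step was the least secure. The call was lost without either wild-type library (log2 1.39 without replicate 1, 0.87 without replicate 2) and without heterozygote replicate 1 (0.86) or 3 (0.90). All 3 heterozygotes were above both wild types, as in 14.0% of tested genes. Both steps between neighbouring genotypes thus depended on single libraries. For heterozygotes over wild types this held for the call, and for homozygotes over heterozygotes for the size.

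Muscle markers moved with Rh50 across the libraries. Mhc, the muscle myosin heavy chain and the marker of muscle used in the study, stood between 3111 and 8559 CPM in homozygotes. It was at 4819, 603 and 3469 CPM in heterozygote replicates 1 to 3, while wild-type replicates 1 and 2 had 281 and 1053 CPM. The heterozygote with low Rh50 was thus also the heterozygote with low Mhc. In homozygotes over controls Mhc rose by 2.53 on the log2 scale (SE 0.48, adjusted p = 0.0016, edgeR). The study's single-nucleus data went the other way, with muscle cells reduced in the mutant, which it left unexplained. Those nuclei came from separate samples, and a share of nuclei is a different measure from an RNA level. A list of 12 muscle genes, drawn up by symbol after the values had been seen, summed to 11704 to 23406 CPM in homozygotes and 2902 to 13860 CPM in controls. All 12 were called higher in homozygotes over controls, as were 18.8% of all tested genes. Their median log2 fold change was 1.46, where that of all tested genes was -0.04. For 1 of the 12 all homozygotes were above all controls, as in 2.66% of tested genes. Over heterozygotes 3 of the 12 were called higher, where 6.82% of all tested genes were, and their median was 0.97. Mhc was not called there (1.29, adjusted p = 0.093, edgeR). The part of muscle RNA in the Rh50 result was not tested.

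Set against the summed counts of the 12 muscle genes in the same library, Rh50 did not separate the genotypes. Per 1000 counts of the 12 muscle genes there were 4.06 to 6.96 Rh50 counts in homozygotes. Heterozygote replicates 1 to 3 had 4.55, 9.15 and 4.69, and the wild types 6.84 and 4.58. The mean log2 ratio differed by -0.16 between homozygotes and controls, with SDs of 0.26 and 0.45. To Mhc alone the mean log2 ratio differed by -0.77, with SDs of 0.44 and 1.13. Counts are not corrected for gene length, so such a ratio is read between libraries and not as a comparison of the genes. Markers of other non-neuronal cells moved in different directions. The glial marker repo rose by 0.35 in homozygotes over controls (adjusted p = 0.022, edgeR), though the groups overlapped. The 4 support cell markers summed to 3717 to 5733 CPM in homozygotes and 3293 to 7418 CPM in controls, a sum made up mostly of LOC105182650. Among them sv rose by 1.54 (adjusted p = 0.0031, edgeR), with 19.5 to 50.1 CPM in homozygotes. It had 10.2 to 33.5 CPM in heterozygotes and 1.91 and 23.9 CPM in wild types, so the groups overlapped. LOC105190591 fell by 0.83 (adjusted p = 2.8e-04, edgeR), with 74.0 to 102 CPM in homozygotes and 121 to 195 CPM in controls. All homozygotes were below all controls for this gene, as in 9.81% of tested genes. The epithelial marker grh had 22.2 to 66.5 CPM against 5.30 to 62.6 CPM. Fat body markers summed to 138 to 498 CPM in homozygotes and 55.3 to 657 CPM in controls. Of the 2 that were tested 1 was called, Hex110, which rose by 1.72 (adjusted p = 0.012, edgeR) with overlapping groups.

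The neuronal markers went the opposite way from Rh50 in homozygotes over controls, but not in heterozygotes over wild types. The study defined neurons by nSyb (neuronal synaptobrevin), Syt1 (a synaptic vesicle calcium sensor), fne (an ELAV-type RNA-binding protein) and onecut (a transcription factor). In homozygotes over controls 3 of the 4 fell, where 25% of all tested genes did, and the median log2 fold change over the 4 was -1.17. Over wild types, in heterozygotes, 2 of the 4 rose and 0 fell, with log2 fold changes of 0.15 to 1.31. In that comparison 9.71% of all tested genes rose and 8.14% fell. For nSyb, homozygote replicates 1 to 7 had 320, 200, 224, 216, 257, 182 and 206 CPM. Heterozygote replicates 1 to 3 had 983, 918 and 843 CPM, and wild-type replicates 1 and 2 had 706 and 792 CPM. All homozygotes were below all controls, as in 9.81% of tested genes, and nSyb fell by 1.77 (SE 0.12, adjusted p = 6.9e-07, edgeR).

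Onecut fell by 1.93 (SE 0.25, adjusted p = 1.1e-04, edgeR) but overlapped, with 14.0 to 47.3 CPM in homozygotes against 110 to 217 CPM in heterozygotes and 28.0 and 177 CPM in wild types. Syt1 fell by 0.57 (SE 0.11, adjusted p = 0.002, edgeR). For fne the log2 fold change was -0.42 (adjusted p = 0.059, edgeR), and without homozygote replicate 1, whose 569 CPM was the highest value of any library, it was -0.68 (adjusted p = 0.0066, edgeR). It was also called without heterozygote replicate 3 (-0.48) or wild-type replicate 2 (-0.53).

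Of 16 further synaptic and neuronal genes, all tested, 11 fell and 2 rose in homozygotes over controls, where 25% of all tested genes fell and 18.8% rose. Their median log2 fold change was -0.75. The largest decreases were those of unc-13, a vesicle priming factor (-2.28), Syt4 (-1.61) and ChAT, which makes acetylcholine (-1.52). The 2 that rose were both synaptotagmins, Sytbeta (0.83) and Syt20 (0.39). Sytbeta was not called with no batch term (0.48, adjusted p = 0.304, edgeR), nor Syt20 without homozygote replicate 1 (0.33). In heterozygotes over wild types 4 of the 16 genes rose and 0 fell, where 9.71% of all tested genes rose and 8.14% fell.

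Expressed per neuronal marker count, the distance between genotypes widened. Per 1000 counts of these 4 markers, homozygote replicates 1 to 7 had 73.5, 126, 113, 115, 104, 163 and 174 Rh50 counts. Heterozygote replicates 1 to 3 had 28.5, 13.8 and 34.1, and wild-type replicates 1 and 2 had 17.9 and 11.7. The lowest homozygote, in batch 1, was still above the highest control. The mean log2 ratio differed by 2.62, a 6.14-fold difference (two-sided exact permutation test, p = 0.00253, adjusted p = 0.0056 over the 11 ratios tested).

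Taken singly, the log2 difference in the Rh50 ratio was 3.72 for onecut, 3.24 for nSyb and 2.16 for Syt1 (adjusted p = 0.0056 each, exact permutation test), and 1.96 for fne (adjusted p = 0.0093). These 4 ratios and their sum also passed within batch 2 alone, each at an adjusted p = 0.0437. A ratio within a library does not depend on scaling between libraries, but it shows only that the genes changed unequally. It is not a count of ammonia-sensing neurons.

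**Figure D2:**
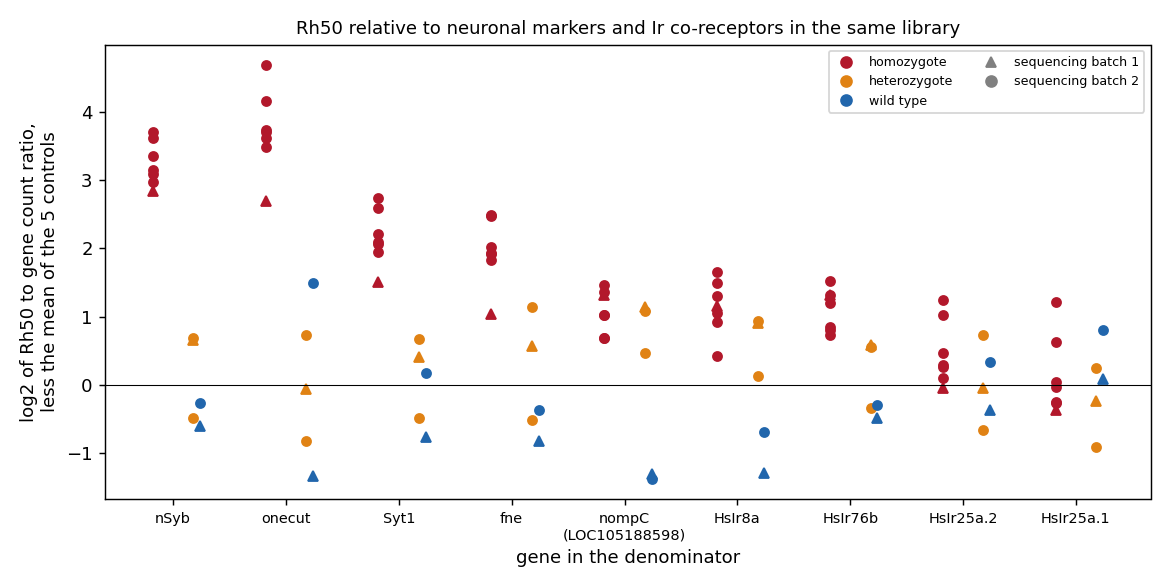
Log2 of the count ratio of Rh50 to another gene in the same library, less the mean of the 5 controls, for 9 genes on the x axis, with homozygotes at the left of each pair and controls at the right, 1 point per library. Homozygotes lie apart from the controls for nSyb, onecut, Syt1 and HsIr76b (differences of 3.24, 3.72, 2.16 and 1.10), and mix with them for HsIr25a.1 (0.14).

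The mechanosensory marker gave 2 answers, depending on the gene taken as nompC, a mechanotransduction channel. The study's gene, LOC105188598, had 13.1 to 20.6 CPM in homozygotes, 7.63 to 11.4 CPM in heterozygotes and 24.8 and 20.9 CPM in wild types. Its log2 fold change in homozygotes over controls was 0.14 (SE 0.16, adjusted p = 0.48, edgeR), and it was lower in heterozygotes than in wild types (-1.23, adjusted p = 0.0047). The ratio of Rh50 to it differed by 1.08 (exact permutation test, adjusted p = 0.077), and passed without heterozygote replicate 1 (1.37) or 3 (1.35). RefSeq gives the symbol nompC to a different gene, LOC105188586, which rose by 1.39 (SE 0.28, adjusted p = 0.0024, edgeR). It had 80.0 to 135 CPM in homozygotes, 24.2 to 79.7 CPM in heterozygotes and 18.2 and 86.1 CPM in wild types. The call was lost with no batch term (0.90, adjusted p = 0.090, edgeR). The ratio of Rh50 to that gene differed by 0.23 (exact permutation p = 0.689, chosen after seeing the data).

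Ir genes, the receptors of the other chemosensory class, rose in part in homozygotes. Of 23 Ir genes, 19 passed the count minimum, and 10 rose and 2 fell over controls, with a median log2 fold change of 0.81. The 12 called were 63.2% of those tested, where 43.9% of all tested genes were called, 18.8% higher and 25% lower. The number that rose was 7 with no batch term. The 4 left untested (HsIr307, HsIr311, HsIr313 and HsIr317) stayed at or below 1.96 CPM in every library. Over heterozygotes 5 rose and 2 fell (36.8% called, 23% of all genes). Without heterozygote replicate 2 the number that rose over heterozygotes was 0 and the number that fell was 2, where 265 of all 10731 genes tested rose. Over wild types 10 rose and 2 fell (63.2% called, 44.8% of all genes), and without wild-type replicate 1 the number called was 4. In heterozygotes over wild types 3 were called by edgeR, each of them higher. That is 15.8%, below the 17.8% of all genes, and the 3 calls were lost without wild-type replicate 1.

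Of the 4 co-receptor genes, the copies of Ir25a rose and the other co-receptors did not pass. HsIr25a.1 had 16.3, 11.6, 12.5, 10.3, 13.4, 7.95 and 6.39 CPM in homozygote replicates 1 to 7. It had 10.1, 6.75 and 6.28 CPM in heterozygote replicates 1 to 3 and 1.84 and 2.61 CPM in wild-type replicates 1 and 2. Homozygotes and heterozygotes overlapped, and both stood above the wild types. Over controls HsIr25a.1 rose by 1.61 on the log2 scale (SE 0.21, adjusted p = 1.5e-04, edgeR), close to Rh50. HsIr25a.2 rose by 1.18 (SE 0.17, adjusted p = 2.4e-04, edgeR). HsIr76b had a log2 fold change of 0.30 (adjusted p = 0.11) and HsIr8a one of 0.24 (adjusted p = 0.31). In heterozygotes over wild types HsIr25a.1 rose by 1.87 and HsIr25a.2 by 1.10 (adjusted p = 0.0043 and 0.014, edgeR).

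The Rh50 ratios followed the same split. To HsIr25a.1 the ratio differed by 0.14 between homozygotes and controls and to HsIr25a.2 by 0.48 (exact permutation test, adjusted p = 0.712 and 0.158). The HsIr25a.1 value was -0.04 without homozygote replicate 7 and -0.09 without heterozygote replicate 2. To HsIr76b it differed by 1.10 (adjusted p = 0.0056), and to HsIr8a by 1.14 (adjusted p = 0.031, exact permutation test). The HsIr8a call was lost within batch 2 (adjusted p = 0.112) and without homozygote replicate 6 or 7, heterozygote replicate 2 or either wild-type library (adjusted p = 0.0536 to 0.075, differences of 0.82 to 1.18). Rh50 per 1000 counts of all 23 Ir genes was 169 to 386 in homozygotes, 180, 110 and 223 in heterozygotes and 103 and 56.0 in wild types. These ranges overlapped, and the log2 difference of 1.03 (adjusted p = 0.031) was also lost within batch 2 (0.88, adjusted p = 0.131) and without homozygote replicate 2, 6 or 7, heterozygote replicate 2 or either wild-type library (0.76 to 1.01, adjusted p = 0.0536 to 0.075).

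Among the other Ir genes, those whose Drosophila relatives serve temperature and humidity sensing rose: HsIr93a by 1.09 (SE 0.20, adjusted p = 0.0011) and HsIr68a by 0.61 (SE 0.17, adjusted p = 0.012, edgeR). The HsIr68a call was lost without wild-type replicate 1 (0.37). It was also lost with library totals (0.48, adjusted p = 0.096) and with a replicate block (0.54, adjusted p = 0.087, edgeR). In Drosophila, Ir75 receptors detect acids together with Ir8a. Here the 3 HsIr75f genes rose by 0.95, 0.85 and 1.24, the last not called without wild-type replicate 1 (1.02), while HsIr75u.1 (0.07) and HsIr75u.2 (0.01) lay near 0 and changed sign with the settings. HsIr312 (1.42), HsIr319 (0.90) and HsIr318 (0.81) also rose, the last with a call lost in 10 of 19 alternatives, 6 of them omissions of 1 library. With no batch term HsIr312 (1.08, adjusted p = 0.12) and HsIr319 (0.66, adjusted p = 0.079, edgeR) were not called either, nor was HsIr312 with a replicate block (adjusted p = 0.061). HsIr316 (0.90), HsIr310 (0.58) and HsIr314 (0.08) were not called. HsIr316 was called without heterozygote replicate 3 or wild-type replicate 2 (1.45 and 1.46), and HsIr310 without homozygote replicate 2 or 4 (0.64 each). The 2 that fell were HsIr308, with 3.41 to 7.62 CPM in homozygotes and 8.59 to 64.3 CPM in controls, and HsIr309, with 4.88 to 12.4 CPM against 10.8 to 55.2 CPM. Their log2 fold changes were -1.55 and -1.15 (adjusted p = 4.0e-04 and 5.2e-04, edgeR). Reads shared by near-identical copies were left uncounted, so the levels of duplicated Ir genes are less certain.

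**Figure D3:**
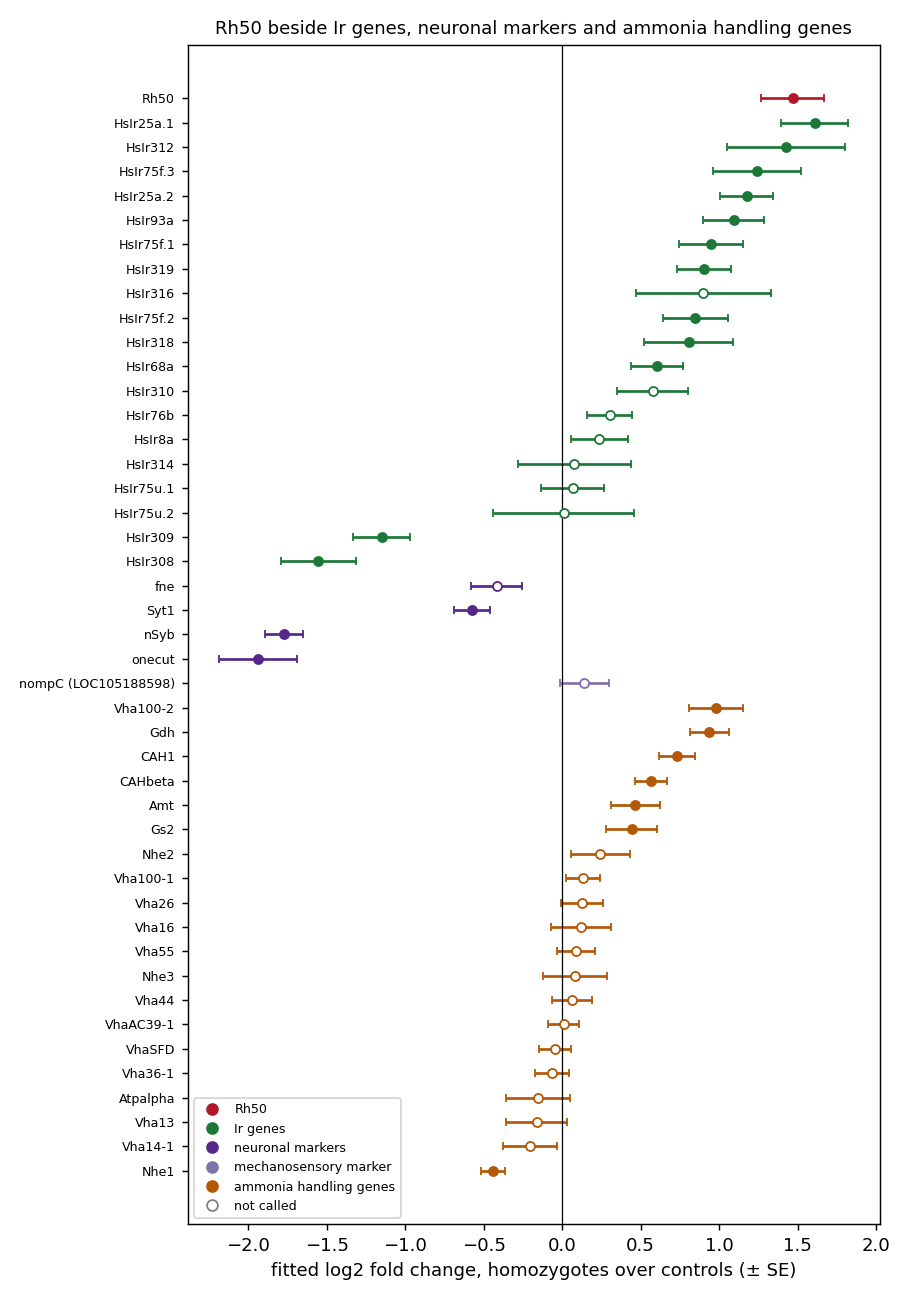
Fitted log2 fold change of homozygotes over controls (x axis, bars are SE) for Rh50, the 19 tested Ir genes, the 4 neuronal markers, the study's mechanosensory marker and 20 ammonia handling genes, filled where called at an adjusted p under 0.05. Rh50 (1.47) lies between HsIr25a.1 (1.61) and HsIr312 (1.42) and above every ammonia handling gene, while nSyb and onecut lie below -1.7.

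The other genes that handle ammonia or move protons beside such channels changed less. The list of 20, all tested, held the ammonium transporter Amt, glutamine synthetase and glutamate dehydrogenase, which bind ammonia into amino acids, carbonic anhydrases, sodium pumps and exchangers and 11 V-ATPase subunits. In homozygotes over controls 6 rose and 1 fell, with a median log2 fold change of 0.11. At 35% called, the list lay below the 43.9% of all tested genes, of which 18.8% rose and 25% fell. Its calls were mostly increases, where those of all tested genes were more often decreases. Outside the V-ATPase subunits, Amt, Gdh, Gs2, CAH1 and CAHbeta rose. Among V-ATPase subunits, which acidify compartments, 1 of 11 rose, or 9.09% where 18.8% of all genes did (Vha100-2, 0.98, adjusted p = 9.3e-04, edgeR). The exchanger Nhe1 fell by 0.44 (adjusted p = 8.5e-04).

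Amt, the other known ammonium channel of antennae, was low throughout, with 5.34 to 9.80 CPM in homozygotes, 9.97, 4.38 and 6.20 CPM in heterozygotes and 3.81 and 5.43 CPM in wild types. The groups overlapped. Its log2 fold change was 0.47 (SE 0.15, adjusted p = 0.031, edgeR), and the call was lost in 11 of 19 alternatives, among them batch 2 alone (adjusted p = 0.062) and 7 of the 12 omissions of 1 library (0.36 to 0.55). Gdh, glutamate dehydrogenase, had 331, 315, 318, 294, 310, 334 and 351 CPM in homozygote replicates 1 to 7, against 265, 186 and 283 CPM in heterozygotes and 122 and 113 CPM in wild types. All homozygotes were above all controls, as in 2.66% of tested genes, and the low heterozygote was again replicate 2. The same separation was seen in 3 of the 20 listed genes, Gdh, CAH1 and CAHbeta. Gdh rose by 0.94 (SE 0.12, adjusted p = 1.2e-04, edgeR). The log2 ratio of Rh50 to Gdh was -2.04 to -1.68 in homozygotes and -2.80 to -2.07 in controls. These ranges did not overlap, and the means differed by 0.51. The carbonic anhydrases CAH1 and CAHbeta rose by 0.73 and 0.57 (adjusted p = 4.6e-04 and 0.0012). For the glutamine synthetase Gs2 the value was 0.44 (adjusted p = 0.043), with the call lost in 14 of 19 alternatives, 9 of them omissions of 1 library (0.33 to 0.47).

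Which genes had a pattern most like that of Rh50? Pearson's r of log2 CPM with Rh50 over the 12 libraries was taken for 9050 genes with a mean of at least 5 CPM, as a description. The libraries share differences in genotype, batch and depth, and no p is given. The 10 highest were LOC105186837 (0.984), LOC105180892 (0.980), Mlc2 (0.978), LOC105188843 (0.977), Mlc1 (0.975), G2428 (0.970), LOC105185171 (0.970), LOC105190576 (0.970), LOC105181245 (0.969) and Tm2 (0.968). Mlc1 and Mlc2 are myosin light chains and Tm2 is a tropomyosin. Of the 12 muscle genes 8 were among the 100 highest of the 9050, and of the 15 Ir genes compared 0 were. The muscle list was drawn up after the values had been seen, so its count describes these libraries and is no independent support. Gdh was the 12th (0.965).

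After genotype and batch means were removed, the 5 highest were LOC105185171 (0.978), LOC105182824 (0.971), the muscle gene Mf (0.970), Mlc1 (0.968) and LOC105190576 (0.963), of which 3 were also in the first set. The muscle genes kept a median r of 0.90 over these residuals. Over the 7 homozygotes alone, which span both batches, it was 0.76 (0.12 to 0.85). For Gdh r was 0.955 over the residuals and 0.889 over the homozygotes. The Ir genes did not keep theirs. HsIr25a.1 had an r of 0.793 over the 12 libraries, -0.42 over the residuals and -0.56 over the homozygotes, and HsIr93a had 0.742, -0.28 and -0.34. Over 15 Ir genes the median r was 0.66 over all libraries and -0.02 over the residuals. The 4 neuronal markers were negative in both, with medians of -0.57 and -0.56. Over the 7 homozygotes alone their median was -0.03. Over the 5 controls alone it was 0.45, where that of the Ir genes was 0.42 and that of the muscle genes 0.89. With additive genotype and batch means removed, Rh50 thus ran with muscle genes and Gdh, and not with Ir genes or neuronal markers. That contrast was smaller over the controls alone, where all of these lists had positive medians. Heterozygote replicate 2 was low in both Rh50 (26.6 CPM, other heterozygotes 63.1 and 55.1 CPM) and Mlc1 (170 CPM, others 1228 and 1095 CPM). The weight of that library in the residual r was not tested.

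**Figure D4:**
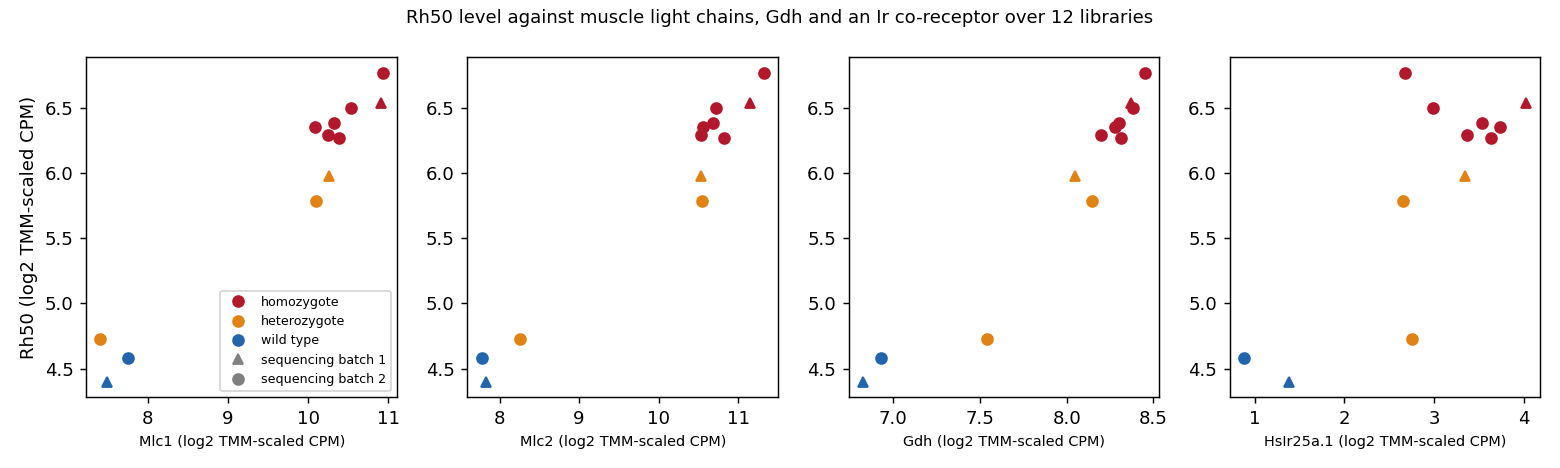
Rh50 (y axis, log2 TMM-scaled CPM) against the myosin light chains Mlc1 and Mlc2, Gdh and HsIr25a.1 (x axes, same scale), with 1 point per library for homozygotes, heterozygotes and wild types. Heterozygote replicate 2 sits near the wild types for Mlc1 and Mlc2 and between them and the other heterozygotes for Gdh (r of 0.975, 0.978 and 0.965 over 12 libraries), and the homozygotes spread with no upward trend against HsIr25a.1 (r of -0.56 over the homozygotes).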

How the data were processed

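Antennal poly(A) RNA of 12 libraries was examined. The authors aligned reads with STAR 2.6.1d to the H. saltator assembly with their own annotation and deposited raw counts per gene, which were used unstranded. They also deposited a normalized signal table from DESeq2 1.34.0, which equalled the counts times 1 constant per library and was not used further. The build of the RefSeq symbols is Hsal_v8.6. Lines that name no gene were 20.7% to 29.7% of reads and were left out.

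The 10740 genes with a mean count of at least 10 were tested with edgeR 4.0.16 (quasi-likelihood, TMM scaling, genotype plus sequencing batch, all 12 libraries, Benjamini-Hochberg, called at an adjusted p under 0.05). Fold changes over controls weight heterozygotes and wild types equally, and SE is the log2 fold change over the root of F. Levels and ratios were compared by two-sided exact permutation tests on log2 values with 0.5 added to counts. The test script was tested on simulated data.

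The members and lists were chosen with earlier results of these data known. Text names Rh50, orco, all Ir genes, the study's markers, list members and the 10 and 5 genes most like Rh50. Of the ammonia handling and synaptic lists it names those called, and of the synaptic genes only those that rose and the 3 that fell most. Lists meant to be matched by description were matched by RefSeq symbol, as the table held no descriptions. Alternatives were other scalings, DESeq2 1.42.0, no count filter, no batch term, batch 2 alone, a replicate block and each library left out.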

Additional observations from a re-analysis of the deposited data

Results flagged for a closer look

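Among 66 values tested in the homozygous libraries, 10 had 1 library farther from the others than Dixon's 95% limit allows, where chance gives about 1 in 20. Rh50 was not among them. Of these 6 lay in homozygote replicate 1, the only homozygote of batch 1, which was high in fne (569 CPM, others up to 290 CPM), Syt1 (326 CPM, up to 211 CPM), onecut (47.3 CPM, up to 24.0 CPM), unc-13 (207 CPM, up to 104 CPM), Con (63.8 CPM, up to 36.7 CPM) and HsIr309 (12.4 CPM, up to 8.13 CPM). Homozygote replicate 5 was high in orco (157 CPM, others up to 45.0 CPM), HsIr8a (115 CPM, up to 78.4 CPM) and HsIr75u.2 (42.1 CPM, up to 22.2 CPM). Homozygote replicate 7, with the highest Rh50, was high in LOC105182824 (65.0 CPM, others up to 49.2 CPM).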

How the results depend on the processing

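The Rh50 calls of homozygotes over controls and over wild types held in all 19 alternatives (log2 1.28 to 1.64 and 1.82 to 2.34). Over heterozygotes the call was lost with the replicate block (0.89, adjusted p = 0.104), and omissions gave 0.59 to 1.15. Heterozygotes over wild types lost the call with no batch term (1.09), in batch 2 alone (0.77) and with the replicate block (1.00), and omissions gave 0.86 to 1.39. Replicate numbers do not pair these libraries: of 7 same-numbered pairs 2 deviated together at r over 0.1 (range -0.54 to 0.52). The permutation difference from heterozygotes lost its call in batch 2 (1.17, p = 0.0714) and, as p cannot then go below 0.0556, without any heterozygote (0.56 to 1.18). The Rh50 to Ir sum ratio lost it in batch 2 (0.88) and without any of 6 libraries (0.76 to 1.25 over all omissions). The genes called in homozygotes over controls, 4712, were 3037 without the batch term, 2747 with the replicate block and 2966 to 6043 with 1 library out. Library totals in place of TMM moved the median of all genes from -0.04 to -0.17 and the share of calls that were higher from 42.9% to 28.3%. Rh50 was then at 1.344.

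Signs changed for the Rh50 to HsIr25a.1 ratio (-0.089 to 0.34 over omissions), HsIr314 (library totals -0.036, batch 2 -0.21, omissions -0.26 to 0.53), HsIr75u.1 (library totals -0.072, batch 2 -0.013, omissions -0.058 to 0.15) and HsIr75u.2 (library totals -0.15, replicate block -0.10, omissions -0.37 to 0.13), none of them called. Of 54 single genes 32 kept their sign and their side of the threshold in every alternative, 3 changed sign only, and 19 lost or gained a call in at least 1. The cause was not tested.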
